A study of Mus musculus with 4 samples.

Results

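Interferon-stimulated genes are the genes that cells transcribe after they have detected a virus or received an interferon signal. The 31 genes described here were chosen by symbol from the 31828 genes of the expression table, each symbol matched 1 row, and they were sorted by role into 22 effectors, 5 sensors and 4 transcription factors. RNA had been sequenced from AML12 cells, an immortalised hepatocyte line derived from a mouse carrying a transforming growth factor alpha transgene, which the study grew either on a dish (2D) or inside Matrigel, a gel of basement membrane proteins (3D). Both cultures received medium with 10% serum, an insulin, transferrin and selenium supplement and the glucocorticoid dexamethasone at 40 ng/mL, and both were held before S phase with 1 mM hydroxyurea. The drug was present for 24 h in the 2D cultures and for 36 h in the 3D cultures, so that the duration of exposure and the culture format cannot be told apart in any comparison below. There were 2 libraries per culture, and nothing in the labels says whether they came from separate cultures, so p-values measure the spread between these libraries, which may be technical.

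Levels are TPM, a unit that divides by transcript length and gives every library the same total. Levels can therefore be compared between genes, but the depth behind a value is unknown. The libraries held 13891 to 14256 genes at 1 TPM or more. The keratin genes of simple epithelium were abundant and lower in 3D, where Krt18 fell from 6286 and 6128 to 3275 and 3319.5 TPM (log2 fold change -0.91) and Krt8 from 3242 and 3199 to 1795 and 1847 TPM (-0.82). The hepatocyte factor Hnf4a stood at 56.7 and 57.6 TPM in 2D and was higher in 3D, at 164 and 156 TPM (log2 fold change 1.47). Ttr, which encodes the plasma carrier transthyretin, was between 3.11 and 88.1 TPM, the higher values in 3D. Alb, which encodes albumin, stood at 0.819 and 1.20 TPM in 2D and at 12.7 and 10.0 TPM in 3D. The mature hepatocyte genes Cps1 and Asgr1 were under 0.3 TPM in every library, so the defining markers of the labelled cell type were only partly present.

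Interferons of type I and type III bind separate receptors, both of which use the kinases JAK1 and TYK2 and lead to a complex with STAT2 and IRF9, which binds the interferon-stimulated response element. Interferon gamma acts through JAK1 and JAK2 and leads to binding at another element, the gamma-activated sequence. The induced proteins bind viral RNA, block the release of particles, modify other proteins or sense further nucleic acid.

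The start regions of members were read first, for the 2 elements named above. The members are on the list as genes that interferon induces, so a high share with the response element is no independent result. RefSeq windows on GRCm38, from 250 bases before to 50 bases after each transcription start, were found for 23 of the 31 members. The core of the response element was searched on both strands as a pair of GAAA repeats with any 2 bases between them and was present in a window of 13 of the 23 members (56.5%), against 1079 of 27025 genes (3.99%). The core of the gamma-activated sequence, searched as TTCNNNGAA, which reads the same on both strands, was present for 4 of the 23 members (17.4%) against 9.55% of all genes. The following stretches of 100 bases lie upstream of the start and are written 5′ to 3′ along the gene. Capitals mark every match to either core, and adjoining or overlapping matches run together.
Ifit1 (chr19:34640769-34640868, plus strand): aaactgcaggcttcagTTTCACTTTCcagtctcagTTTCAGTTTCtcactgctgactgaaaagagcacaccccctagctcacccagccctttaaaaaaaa
Ifit3 (chr19:34583359-34583458, plus strand): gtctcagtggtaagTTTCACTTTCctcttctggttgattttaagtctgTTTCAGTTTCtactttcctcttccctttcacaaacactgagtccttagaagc
Ifit3b (chr19:34607757-34607856, plus strand): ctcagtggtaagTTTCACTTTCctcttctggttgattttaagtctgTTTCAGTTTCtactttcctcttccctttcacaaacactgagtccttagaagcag
Isg15 (chr4:156200839-156200938, minus strand): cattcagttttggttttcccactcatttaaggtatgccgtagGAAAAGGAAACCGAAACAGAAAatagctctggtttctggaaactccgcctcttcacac
Oas1a (chr5:120907526-120907625, minus strand): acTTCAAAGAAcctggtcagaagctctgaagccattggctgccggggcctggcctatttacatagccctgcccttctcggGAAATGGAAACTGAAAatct
Bst2 (chr8:71537523-71537622, minus strand): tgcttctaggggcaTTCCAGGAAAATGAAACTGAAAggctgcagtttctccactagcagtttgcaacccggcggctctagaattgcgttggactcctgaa
Stat2 (chr10:128270248-128270347, plus strand): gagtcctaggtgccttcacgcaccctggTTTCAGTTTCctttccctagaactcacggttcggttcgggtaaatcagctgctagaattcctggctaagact
Irf1 (chr11:53769894-53769993, plus strand): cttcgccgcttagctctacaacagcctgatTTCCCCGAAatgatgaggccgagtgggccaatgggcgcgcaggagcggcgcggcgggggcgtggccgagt
Herc6 (chr6:57580872-57580971, plus strand): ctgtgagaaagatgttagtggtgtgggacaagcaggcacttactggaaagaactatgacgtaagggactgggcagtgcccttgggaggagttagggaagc

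The 3 Ifit genes are shown because each carries a pair of response element cores, and the stretches of Ifit3 and Ifit3b hold the same pair at the same spacing. Isg15 carries 3 cores in a row, Oas1a and Bst2 carry both kinds of core, Stat2 carries 1 response element core, and Irf1 carries the gamma-activated core without the other. Herc6 is shown because it was the member that fell in 3D, and neither core is in its window. Higher members could lack the response element core too, as it was present for 8 of the 13 higher members with a window. It was also present for 1 of the 2 not past the threshold and for 4 of the 7 below the filter. Matches are a description of these letters, and no binding was measured.

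Most of the interferon-stimulated genes were transcribed at a low level in both cultures. The sum over the 31 members was 270.9 and 264.6 TPM in 2D and 527.2 and 568.2 TPM in 3D, and Bst2 alone gave between 53.1% and 56.6% of it. In each 2D library 16 members reached 1 TPM, and in each 3D library 22 did. Both 3D libraries were above both 2D libraries for 25 of the 31 members, against 24.8% of all rows of the table, and below both for 1 member, against 29.4% of rows. Among the genes tested below, 35.9% were above in this sense, 41.6% below and 77.5% either of them, so that an ordered gene was common in this table. In the remaining 5 members the cultures overlapped. In bulk RNA a change in the number of cells that transcribe a gene and a change in RNA per cell cannot be told apart.

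**Figure D1:**
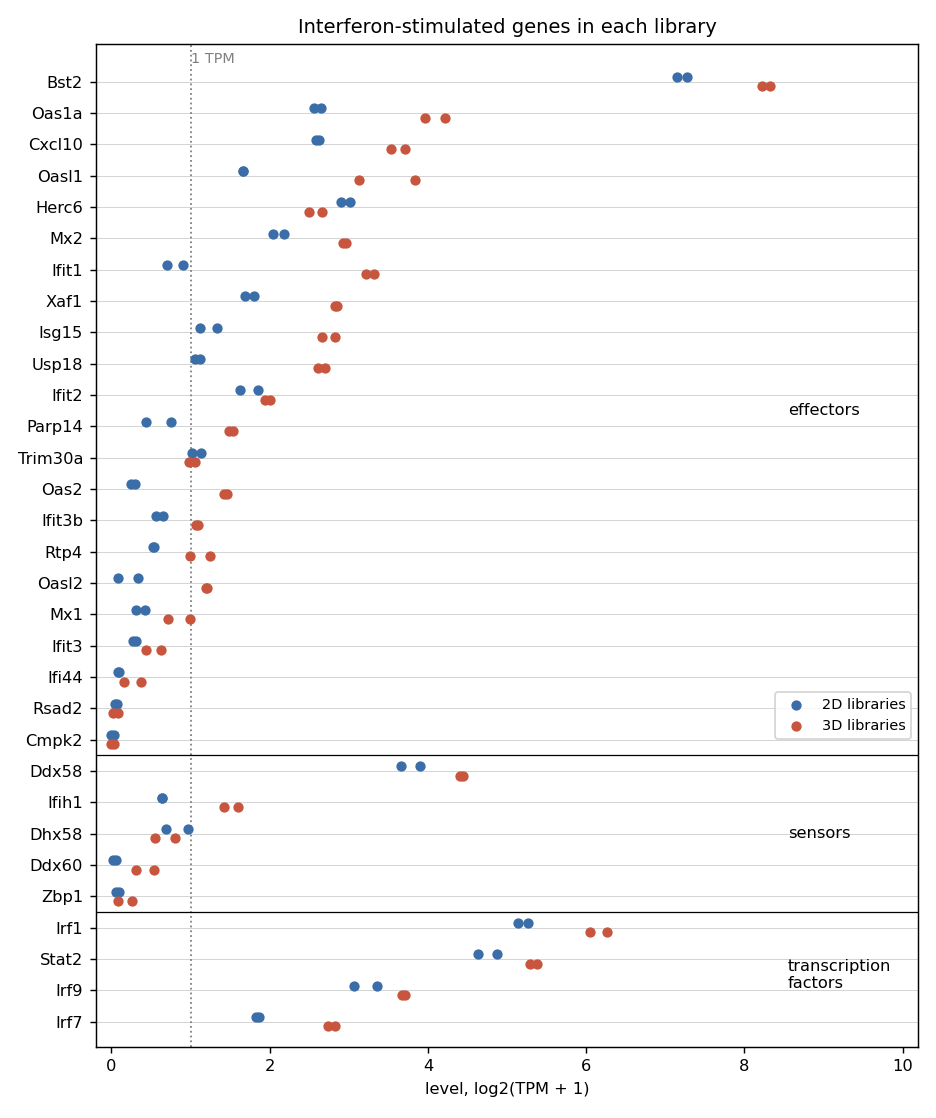
Level of each of the 31 interferon-stimulated genes in each library, as log2(TPM + 1) on the x axis, with the 2 libraries of the 2D culture in blue and the 2 of the 3D culture in red and a dotted line at 1 TPM. Genes are ordered by mean level within effectors, sensors and transcription factors. Red points lie to the right of blue points for 25 genes, and Bst2, at 140.5 to 319.9 TPM, is far above the other effectors.

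Genes with a mean of at least 1 TPM over the 4 libraries were tested with limma on log2(TPM + 1), and 19 of the 31 members passed that filter. Of these, 16 were higher in 3D at an adjusted p-value under 0.05 and 1 was lower, whereas among all 14116 genes tested 23.4% were higher and 27.1% lower. The median log2 fold change was 0.94 over the 19 members and -0.04 over all genes tested. Ifit1, Parp14 and Ifih1 passed the filter with a mean under 1 TPM in 2D, that is through their level in 3D, and such genes had to differ to be tested. Among the 16 members with a 2D mean of at least 1 TPM, 13 were higher and 1 lower, with a median of 0.95. With 2 libraries in each culture the smallest exact permutation p is 0.333, so single genes were not tested in that way.

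Among the effectors, the IFIT proteins bind viral RNA that lacks the modified cap of host messages, and the oligoadenylate synthetases make a second messenger that switches on RNase L. Ifit1 (ENSMUSG00000034459, chromosome 19, 34640871 to 34650009) stood at 0.628 and 0.874 TPM in 2D and at 8.99 and 8.30 TPM in 3D. It was the member with the largest log2 fold change, 2.46 (standard error 0.13, adjusted p 0.000463 by limma), and the ratio of mean TPM was 11.5. Ifit2, in the same cluster, stood at 2.10 and 2.59 TPM in 2D and at 2.84 and 2.99 TPM in 3D. Although its libraries were ordered by culture, the difference was not past the threshold (log2 fold change 0.23, 95% interval -0.10 to 0.57, adjusted p 0.193 by limma).

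Oas1a, an oligoadenylate synthetase (chromosome 5, 120896256 to 120907521), stood at 5.26 and 4.88 TPM in 2D and at 14.6 and 17.5 TPM in 3D. Its log2 fold change was 1.49 (standard error 0.12, adjusted p 0.00107 by limma). Of the 100-base words in its longest transcript, 40.1% also occur in that of Oas1g, so the division of reads between these genes is uncertain. Oas1g itself was at 0.597 ± 0.0869 TPM in 2D against 2.23 ± 0.436 TPM in 3D (n = 2 each, SD). Oasl1, an OAS-like protein that restrains translation of Irf7, stood at 2.17 and 2.16 TPM in 2D and at 7.74 and 13.3 TPM in 3D. On the log2 scale the 3D libraries were further apart for Oasl1 than for any other tested member, and its log2 fold change of 1.82 had the largest SE, 0.25 (adjusted p 0.00482 by limma).

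Bst2 encodes tetherin, a membrane protein that holds budding virus particles on the cell surface, and it was the only effector above 20 TPM in any library. Its level on chromosome 8 (71534255 to 71537456) was 153 and 140.5 TPM in 2D and 297 and 319.9 TPM in 3D. The log2 fold change was 1.07 (standard error 0.06, adjusted p 0.000626 by limma), the smallest error of any tested member. Mx2, a dynamin-like GTPase that the table annotates as a polymorphic pseudogene, stood at 3.10 and 3.52 TPM in 2D and at 6.78 and 6.62 TPM in 3D. It rose by a log2 fold change of 0.84 (standard error 0.10, adjusted p 0.00347 by limma). The other 5 effectors that act on particles or membranes, Mx1, Rsad2, Cmpk2, Ifi44 and Rtp4, were below the filter.

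ISG15 is a small ubiquitin-like protein that is joined to other proteins, and USP18 removes it and also blocks the type I interferon receptor. Isg15 (chromosome 4, 156199424 to 156200818) stood at 1.53 and 1.17 TPM in 2D and at 5.35 and 6.09 TPM in 3D. Its log2 fold change was 1.52 (standard error 0.14, adjusted p 0.00156 by limma). Usp18 stood at 1.17 and 1.07 TPM in 2D and at 5.12 and 5.51 TPM in 3D, and its log2 fold change was 1.57 (standard error 0.11, adjusted p 0.000859 by limma). The ratios of mean TPM were 4.24 for Isg15 and 4.74 for Usp18.

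Herc6, the mouse ligase that joins ISG15 to its targets, did not move with them. It stood at 6.44 and 7.05 TPM in 2D and at 5.35 and 4.66 TPM in 3D, both below both 2D libraries. The log2 fold change was -0.37 (standard error 0.11, adjusted p 0.0439 by limma). This call was lost when any 1 of the 4 libraries was left out, with limma adjusted p-values between 0.0742 and 0.176, and with a block for the replicate number (0.0792). Trim30a, a ubiquitin ligase that dampens inflammatory signalling, was at 1.19 and 1.03 TPM in 2D and at 1.09 and 0.978 TPM in 3D, where the cultures overlapped (log2 fold change -0.06, 95% interval -0.41 to 0.30).

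The remaining effectors were all higher in 3D. Cxcl10, a secreted chemokine that draws T cells, stood at 5.02 and 5.18 TPM in 2D and at 10.6 and 12.1 TPM in 3D, with a log2 fold change of 1.02 (standard error 0.10, adjusted p 0.00198 by limma). Xaf1, which opposes inhibitors of apoptosis, stood at 2.49 and 2.23 TPM in 2D and at 6.11 and 6.20 TPM in 3D. Its log2 fold change was 1.09 (standard error 0.10, adjusted p 0.00175 by limma). Parp14, an ADP-ribosyltransferase, was at 0.353 and 0.690 TPM in 2D and at 1.89 and 1.81 TPM in 3D (log2 fold change 0.91, SE 0.17, adjusted p 0.0109 by limma). Without 3D replicate 1 its adjusted p was 0.0546.

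Of the sensors, the RNA helicases encoded by Ddx58 (RIG-I) and Ifih1 (MDA5) start the signal that leads to interferon, and 2 of the 5 genes passed the filter. Ddx58 stood at 11.6 and 13.9 TPM in 2D and at 20.7 and 20.2 TPM in 3D, which made it the sensor with the highest level in every library. Its log2 fold change was 0.64 (standard error 0.10, adjusted p 0.00743 by limma). Ifih1 was at 0.557 and 0.554 TPM in 2D and at 1.69 and 2.02 TPM in 3D, with a log2 fold change of 0.87 (standard error 0.14, adjusted p 0.00724 by limma). The third helicase of this family, Dhx58 (LGP2), showed no such order, at 0.952 and 0.609 TPM in 2D and at 0.750 and 0.460 TPM in 3D.

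All 4 transcription factors were tested and higher in 3D. Irf1, a factor induced by interferon gamma and by NF-kB, had the highest level of them at 37.4 and 34.1 TPM in 2D and 65.4 and 75.6 TPM in 3D. Its log2 fold change was 0.96 (standard error 0.09, adjusted p 0.00193 by limma). Irf7, which amplifies the transcription of interferon genes, was at 2.55 and 2.64 TPM in 2D and at 5.67 and 6.10 TPM in 3D. It rose by a log2 fold change of 0.94 (standard error 0.10, adjusted p 0.00244 by limma).

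Stat2 and Irf9 encode parts of the complex that type I and type III interferons form, and their changes were smaller. Stat2 stood at 23.9 and 28.3 TPM in 2D and at 40.5 and 38.2 TPM in 3D, a log2 fold change of 0.58 (standard error 0.10, adjusted p 0.00856 by limma). Irf9 stood at 7.39 and 9.28 TPM in 2D and at 11.7 and 12.0 TPM in 3D, a log2 fold change of 0.47 (standard error 0.12, adjusted p 0.0307 by limma). The call for Irf9 was lost without 2D replicate 1 (adjusted p 0.0597 by limma), without 3D replicate 1 (0.101) and without 3D replicate 2 (0.116). The model of Irf9 overlaps that of Rnf31 by 123 bases on the same strand, and the mean level of Rnf31 was 9.93 TPM in 2D against 11.9 TPM in 3D.

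**Figure D2:**
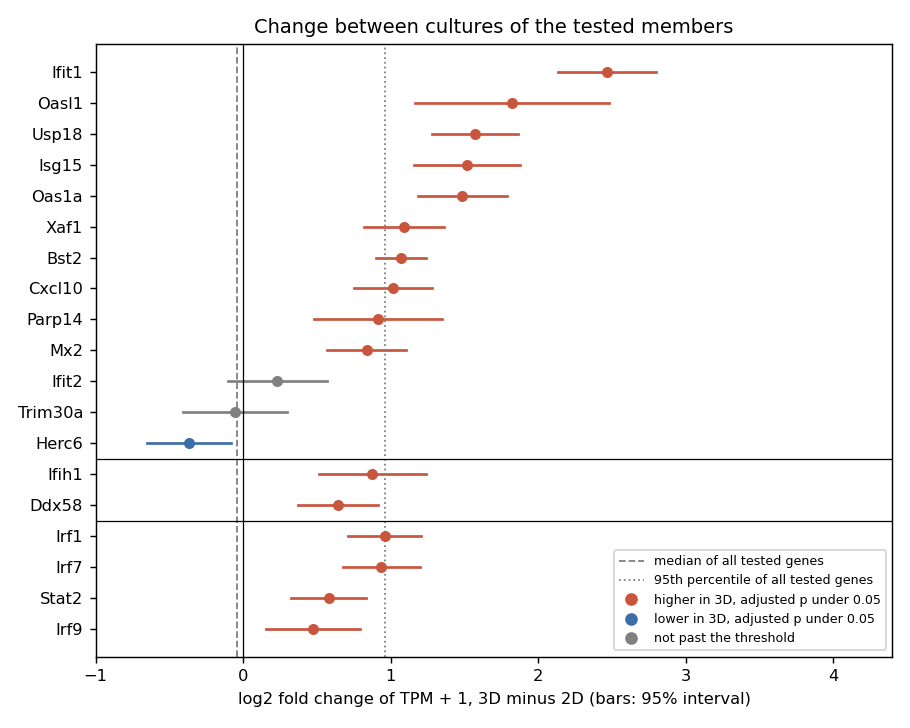
Log2 fold change of TPM + 1, 3D minus 2D, on the x axis for the 19 tested members, with 95% intervals from limma, by role from effectors at the top to transcription factors at the bottom. Red points were higher in 3D, the blue point (Herc6, -0.37) was lower, and grey points (Ifit2 and Trim30a) were not past the threshold. The dashed line is the median of all genes tested (-0.04), and the dotted line is their 95th percentile (0.96).

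Set side by side, 8 of the 19 tested members were higher by more than 1 on the log2 scale, against 4.37% of all genes tested. All 8 were effectors, namely Ifit1, Oasl1, Usp18, Isg15, Oas1a, Xaf1, Bst2 and Cxcl10. Ifit1 had to differ to be tested, and among the 16 members with a 2D mean of at least 1 TPM the count was 7. The median was 1.07 over the 13 effectors tested, 0.76 over the 2 sensors and 0.76 over the 4 transcription factors. These medians rest on few genes, and no test of the difference between roles was made. They include the effectors Ifit1 and Parp14 and the sensor Ifih1, which passed the filter only through their level in 3D. The interval of Ifit1 (2.13 to 2.80) lay above those of all other tested members except Oasl1 (1.16 to 2.48). The next members in the order, Usp18 (1.28 to 1.86), Isg15 (1.16 to 1.88) and Oas1a (1.18 to 1.79), had intervals that covered each other's values.

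The size of these changes depends on what is added to TPM before the logarithm, because most members are low. With 0.1 TPM added the log2 fold change of Ifit1 was 3.38, and with 5 TPM added it was 1.25. For Isg15 these values were 2.01 and 0.76, and for Bst2, at over 100 TPM, they were 1.07 and 1.05. The median over the tested members was 1.14 with 0.1 TPM and 0.52 with 5 TPM, and 16 members were higher and 1 lower under either.

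**Figure D3:**
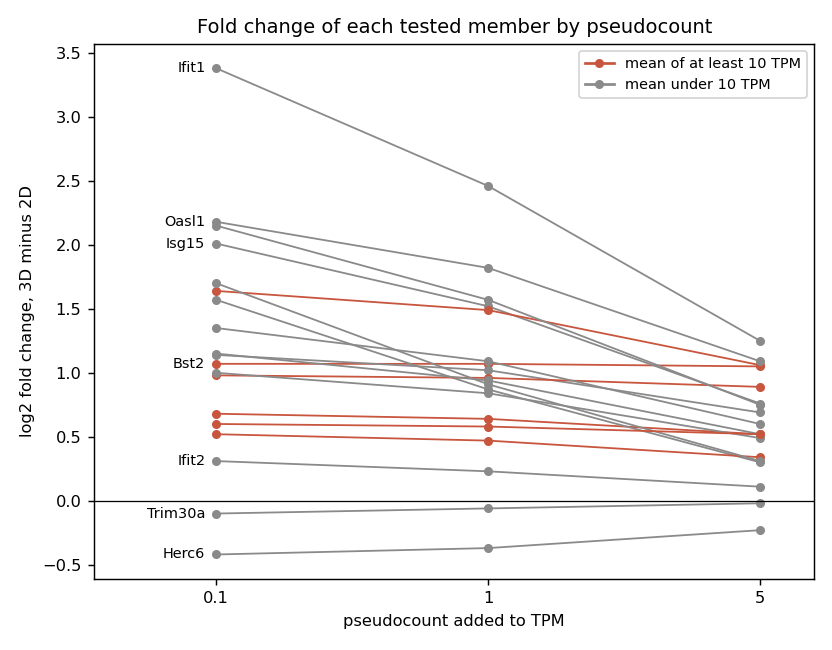
Log2 fold change of each tested member, 3D minus 2D, with 0.1, 1 or 5 TPM added to each value before the logarithm. Red lines are members with a mean of at least 10 TPM and grey lines the others. The line of Bst2 is nearly level (1.07, 1.07 and 1.05), that of Oas1a, also red, falls from 1.64 to 1.06, and that of Ifit1 falls most (3.38, 2.46 and 1.25).

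Below the filter were 12 members, and 8 of them were under 1 TPM in every library. Both 3D libraries were above both 2D libraries for 8 of the 12, against 15.9% of all rows below the filter, and below them for 0, against 19.6% of those rows. Oas2 stood at 0.183 and 0.232 TPM in 2D and at 1.75 and 1.68 TPM in 3D. Oasl2 stood at 0.0615 and 0.257 TPM in 2D and at 1.3004 and 1.2982 TPM in 3D. When every row of the table was tested with no filter, Oas2 (log2 fold change 1.17, adjusted p 0.00599 by limma) and Oasl2 (0.99, adjusted p 0.0135 by limma) were the 2 of these 12 that passed the threshold.

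The close copies Ifit3 and Ifit3b share 31.7% and 27.4% of their 100-base words, so their separate levels are uncertain. Ifit3 was at 0.234 and 0.206 TPM in 2D and at 0.540 and 0.347 TPM in 3D, and Ifit3b at 0.483 and 0.575 TPM in 2D and at 1.10 and 1.14 TPM in 3D. Summed, the pair stood at 0.717 and 0.781 TPM in 2D and at 1.64 and 1.48 TPM in 3D. The sum had a log2 fold change of 0.55 (standard error 0.13, adjusted p 0.0241 by limma), but it too passed the filter only through its level in 3D.

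Several genes that are widely used as readouts of interferon were close to absent. Rsad2, which encodes viperin, was at 0.0275 and 0.0460 TPM in 2D and at 0.0145 and 0.0591 TPM in 3D. Its neighbour Cmpk2, a mitochondrial nucleotide kinase, was at 0.0183 and 0.0185 TPM in 1 library of each culture and listed at 0 in the others. These 2 genes and the sensors Dhx58 and Zbp1 are the 4 members below the filter whose cultures overlapped. Zbp1, a sensor of Z-form nucleic acid, lay between 0.0379 and 0.196 TPM.

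The other low members were ordered by culture, with no call even when every row was tested. Mx1, a GTPase against influenza virus, was at 0.243 and 0.341 TPM in 2D and at 0.647 and 0.991 TPM in 3D. Rtp4 was at 0.438 and 0.455 TPM in 2D and at 0.994 and 1.37 TPM in 3D, and 39791 bases of its model are shared on the same strand with Gm45338. The mean level of Gm45338 was 1.90 TPM in 2D against 1.06 TPM in 3D. Ddx60, a helicase linked to RIG-I, was at 0.0095 and 0.0364 TPM in 2D and at 0.237 and 0.450 TPM in 3D. Ifi44 lay between 0.0614 and 0.292 TPM.

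Genes upstream of the members were compared next, from lists of the pathway, whose counts stand beside 23.4% higher and 27.1% lower among all genes tested. The interferon genes with a row in the table, Ifnb1, Ifnk, Ifne, Ifnl2 and Ifnl3, did not exceed 0.185 TPM in any library. Ifnb1, which encodes interferon beta, was listed at 0 in both 2D libraries and in 3D replicate 1 and at 0.0829 TPM in 3D replicate 2. The other 5 ligand genes of that list were not analysed here.

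All 6 interferon receptor genes were tested, and 4 were higher and 0 lower in 3D. Ifnlr1, the specific chain of the interferon lambda receptor, stood at 7.46 and 7.21 TPM in 2D and at 23.6 and 22.7 TPM in 3D. Its log2 fold change was 1.54 (standard error 0.07, adjusted p 0.000406 by limma), the largest of the 6. The shared chain Il10rb was at 19.2 ± 2.89 TPM in 2D against 17.9 ± 0.395 TPM in 3D (n = 2 each, SD), not past the threshold (log2 fold change -0.09, 95% interval -0.39 to 0.22). Ifngr1 and Ifngr2, the chains of the interferon gamma receptor, rose by 0.53 and 0.76 on the log2 scale (adjusted p 0.00872 and 0.00136 by limma). Of the type I receptor, Ifnar2 rose by 0.35 (adjusted p 0.0314 by limma), while Ifnar1 was at 26.7 and 19.7 TPM in 2D and 22.5 and 28.5 TPM in 3D, with overlap.

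Of 10 genes of signal transduction 8 were higher in 3D and 0 lower, with a median log2 fold change of 0.43 (all genes tested 23.4% higher, 27.1% lower). Jak2, the kinase of the interferon gamma receptor and of several cytokine receptors, rose from 41.1 ± 2.08 to 86.8 ± 1.03 TPM (n = 2 each, SD), a log2 fold change of 1.06. Jak1 rose by 0.28, Stat3 by 0.25 and Tyk2 by 0.50, and the phosphatase gene Ptpn11 was not past the threshold (log2 fold change 0.02, adjusted p 0.752 by limma). The feedback inhibitor Socs3, which answers mainly to cytokines of the interleukin-6 family, rose by 1.04 (adjusted p 0.000702 by limma), whereas Socs1, the inhibitor most tied to interferon, was at 3.46 ± 0.124 TPM in 2D against 3.71 ± 0.168 TPM in 3D (n = 2 each, SD, adjusted p 0.541 by limma).

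In the pathway from nucleic acid detection to interferon, 13 of 14 genes were tested, 9 were higher and 1 was lower, with a median of 0.39. Trim25, the ubiquitin ligase of RIG-I, stood at 15.4 and 16.6 TPM in 2D and at 38.8 and 36.3 TPM in 3D, a log2 fold change of 1.18 (standard error 0.07, adjusted p 0.000667 by limma). The kinase gene Ikbke was the most abundant of the list, at 149.6 and 160.4 TPM in 2D and 218 and 209.8 TPM in 3D (log2 fold change 0.46). Zc3hav1, which encodes the zinc-finger antiviral protein, rose by 0.51 (adjusted p 0.00188 by limma). The kinase Tbk1, a relative of Ikbke (adjusted p 0.164 by limma) and its substrate Irf3 (adjusted p 0.159 by limma) were not past the threshold. Myd88, the adaptor of most Toll-like receptors, fell by 0.52 on the log2 scale (adjusted p 0.00197 by limma). The DNA sensor gene Mb21d1 (cGAS) was below the filter at 0.371 and 0.540 TPM in 2D and at 0.155 and 0.117 TPM in 3D.

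Interferon-stimulated genes outside the 31 members were read in the same way. Of a further list of 40, 32 were tested, 18 were higher, 2 were lower and 12 were not past the threshold, with a median of 0.49. Oas1g, counted as higher, had a 2D mean under 1 TPM and passed the filter through its level in 3D. Lgals3bp, a secreted glycoprotein, stood at 55.3 and 61.4 TPM in 2D and at 218 and 223 TPM in 3D, a log2 fold change of 1.90 (standard error 0.06, adjusted p 0.000241 by limma). The most abundant gene of the list, Ifitm2, which encodes a membrane protein that hinders virus entry, was at 245 ± 11.5 TPM in 2D against 233 ± 10.7 TPM in 3D (n = 2 each, SD). Its difference was not past the threshold (log2 fold change -0.08, 95% interval -0.22 to 0.07). Shisa5 (log2 fold change -0.36, adjusted p 0.140 by limma) and Lgals9, which fell by 0.22 (adjusted p 0.0452 by limma), completed the 4 most abundant.

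Most of the genes induced chiefly by interferon gamma were low. Of 16 GTPase and class II control genes 7 were tested, 6 were higher and 0 lower, with a median of 0.81. Gbp3, Gbp4, Igtp and Irgm2, all counted as higher, had a 2D mean under 1 TPM and passed the filter through their level in 3D, so they had to differ to be tested. Of the others, Irgm1 and Gbp9 were higher and Gbp2 was not past the threshold (log2 fold change 0.47, adjusted p 0.0554 by limma). The most abundant of them was Irgm1, at 36.0 and 34.4 TPM in 2D and at 60.6 and 64.3 TPM in 3D (log2 fold change 0.81, SE 0.06, adjusted p 0.000913 by limma). Gbp9 (4.15 ± 0.371 and 5.93 ± 0.258 TPM), Igtp (0.974 ± 0.263 and 4.25 ± 0.153 TPM) and Irgm2 (0.866 ± 0.0612 and 3.87 ± 0.0648 TPM, each in 2D and 3D, SD, n = 2) were also higher in 3D. Ciita, the master regulator of class II antigen presentation, lay between 0.186 and 0.353 TPM.

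**Figure D4:**
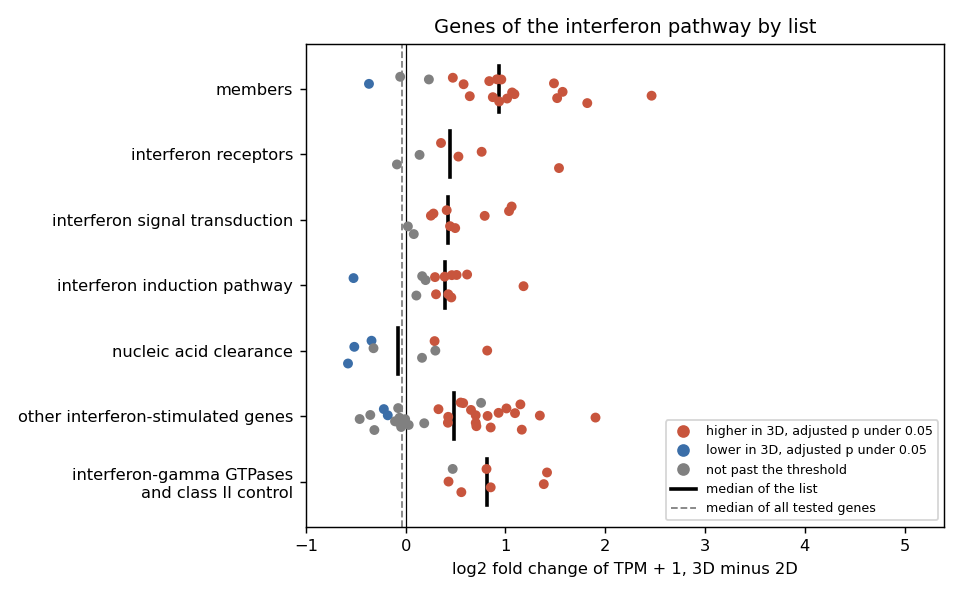
Log2 fold change of TPM + 1, 3D minus 2D, on the x axis for each tested gene of the members and of 6 further lists, with the black bar at the median of a list, red points higher and blue points lower at an adjusted p-value under 0.05 and grey points not past it. Vertical positions within a list carry no meaning. The medians run from -0.08 for nucleic acid clearance to 0.94 for the members, beside -0.04 for all genes tested (dashed line).

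Several members lie in clusters of related genes, and all rows of the table within these were read. In the Ifit cluster of chromosome 19 the table holds 6 Ifit genes, and both 3D libraries were above both 2D libraries for all 6, against 24.8% of all rows. Only 3 of the 6 passed the filter, and 2 of these, Ifit1 and Ifit1bl2, were higher in 3D, against 23.4% of all genes tested. Both had a 2D mean under 1 TPM. Ifit1bl2, which is no member, was at 0.130 and 0.0950 TPM in 2D and at 2.06 and 2.17 TPM in 3D (log2 fold change 1.49, SE 0.13, adjusted p 0.00157 by limma). The genes that flank this cluster and belong to other families were also higher in 3D, as Slc16a12, a carrier of the monocarboxylate family, had a log2 fold change of 2.46 and Lipa, the lysosomal acid lipase, one of 0.89. In the Oas cluster of chromosome 5 the table holds 10 Oas genes, and 8 were ordered in this way, while Oas1e and Oas1f overlapped between cultures. Of the 10, 8 passed the filter and 6 were higher (23.4% of all genes tested were), among them Oas1g and Oas1d with a 2D mean under 1 TPM. The most abundant gene there was Oas1b, a polymorphic pseudogene in the annotation, at 36.9 and 31.3 TPM in 2D and 88.2 and 87.7 TPM in 3D (log2 fold change 1.34, adjusted p 0.000731 by limma). Its flank Dtx1 had a log2 fold change of 1.10, and the flank on the other side, Rph3a, had one of 0.08 (adjusted p 0.597 by limma).

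**Figure D5:**
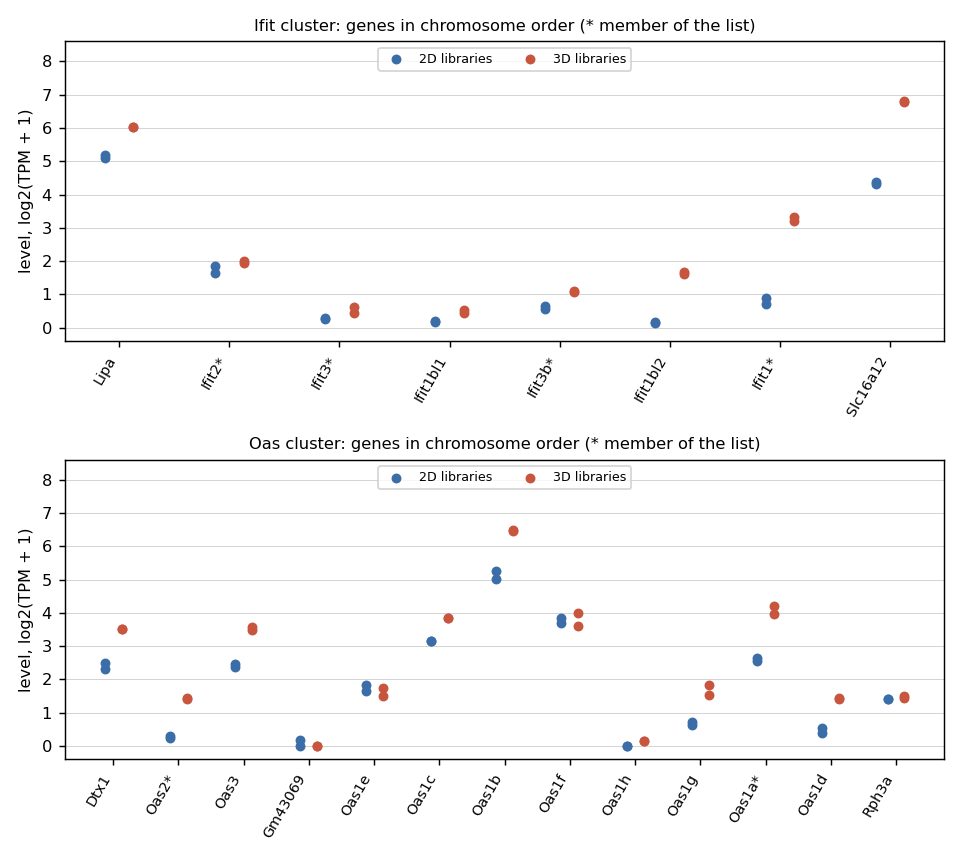
Level of every gene of the table in the Ifit cluster of chromosome 19 and the Oas cluster of chromosome 5 with 1 expressed flanking gene on each side, as log2(TPM + 1) on the y axis and in chromosome order on the x axis, with blue points for 2D and red points for 3D libraries. Members carry a star. In the Ifit cluster the flanks Lipa and Slc16a12 rise with the Ifit genes (0.89 and 2.46 on the log2 scale), and in the Oas cluster Oas1e and Oas1f overlap between cultures.

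The nearest expressed genes on each side of all members that are not members themselves were 51 in number. Of these 22 were higher, 10 lower and 19 not past the threshold in 3D, with a median log2 fold change of 0.25, where 23.4% of all genes tested were higher and 27.1% lower, with a median of -0.04. Ifit1bl2, Oas1g, Oas1d and Cdhr5, all among the 22, had a 2D mean under 1 TPM. They counted as expressed only through their level in 3D, so they had to differ to be included. Some of the 51 neighbours are related genes, such as Oas3 beside Oas2 (log2 fold change 1.10) and the polymorphic pseudogene Cxcl11 beside Cxcl10 (0.67). Others were lower beside a member that was higher, as Apof, 406 bases from Stat2, fell by 0.85 on the log2 scale (adjusted p 0.00245 by limma). Beside Ifih1, Gca fell by 0.46 at a distance of 18030 bases and Psmd14 by 0.55 at 795422 bases.

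Leukocytes transcribe many of these genes, and their markers were read in the same libraries. Of 14 leukocyte and macrophage markers 1 was higher, 1 lower and 2 not past the threshold, and 10 were below the filter. Among all genes tested 23.4% were higher and 27.1% lower. The list summed to 137.2 and 137.9 TPM in 2D and to 300.2 and 296.6 TPM in 3D, nearly all of it from Cd14, which rose from 114 ± 0.805 to 271 ± 0.0660 TPM (n = 2 each, SD), and Cd68. Lyz2 was not past the threshold (adjusted p 0.459 by limma), and the T cell gene Cd3e fell by 0.94 on the log2 scale (adjusted p 0.00555 by limma), with a 3D mean under 1 TPM, so that it passed the filter only through its level in 2D. Without Cd14 and Cd68 the sums were 5.18 and 5.47 TPM in 2D and 3.66 and 4.16 TPM in 3D. Over the 14 markers, tested or not, 5 had both 3D libraries above both 2D libraries, against 24.8% of all rows of the table. Another 5 had them below, against 29.4% of all rows, and 4 overlapped. Those above were Cd14, Cd68, the macrophage receptor genes Marco (0.230 and 0.136 TPM in 2D, 1.17 and 0.704 TPM in 3D) and Csf1r (0.182 and 0.127 TPM in 2D, 0.534 and 0.416 TPM in 3D), and the common leukocyte gene Ptprc (0.184 and 0.111 TPM in 2D, 0.296 and 0.280 TPM in 3D). The macrophage gene Adgre1 was listed at 0 in 3 of 4 libraries. Of 9 endothelial and stromal markers with a row, 8 were below the filter, among them Pdgfrb, Pecam1 and Col1a1 at 0.154 to 0.765 TPM, and Des, a muscle and stellate cell filament gene, fell from 34.9 ± 1.65 to 18.0 ± 1.07 TPM (n = 2 each, SD). Of the 9, Stab2, a receptor gene of sinusoidal endothelium, had both 3D libraries above both 2D libraries (0.0900 and 0.0687 TPM in 2D, 0.494 and 0.660 TPM in 3D). Another 2 had them below and 6 overlapped, beside 24.8% of all rows above and 29.4% below. The part of such cells in the members' levels was not tested.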

How the data were processed

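RNA-seq libraries of AML12 cells, 2 from 2D and 2 from 3D cultures, were grouped by the labels. Per the labels and methods, reads were trimmed (cutadapt 1.8.3, Trimmomatic 0.36) and aligned to GRCm38 (HISAT2 2.0.5), and the authors' StringTie 1.3.4 run on an Ensembl annotation gave the deposited TPM of each library. The table also holds the log2 fold change and p-value that the authors deposited from their own DESeq2 comparison, and neither was used. Genes with a mean of at least 1 TPM entered limma 3.58.1 under R 4.3.3 as log2(TPM + 1) (eBayes with trend and robust variance, culture as the only factor, two-sided, Benjamini-Hochberg adjustment over all 14116 genes), after a test on simulated data. TPM keeps no depth, so no counting interval was computed, and a 0 can be a failed estimate. Members and lists were chosen with earlier results of these data known. Every member is named, with every receptor, the 4 most abundant genes of each other list and flanking genes (of these, only some are printed). Other genes were named after their values were seen. Alternatives covered the pseudocount, the filter, centring, quantile normalization, the prior variance, a replicate block, libraries left out and Ifit3 with Ifit3b summed. Promoter windows are RefSeq sequences on GRCm38, and shared words come from GENCODE transcripts. Figures used Python 3.11.15 and matplotlib 3.10.9. Of the genes on the fixed lists, 1 is not reported here by name.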

Additional observations from a re-analysis of the deposited data

How the results depend on the processing

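The main setting had 16 members higher and 1 lower among 19 tested. A filter at a mean of at least 5 TPM by construction left fewer to test, 10 members, of which 9 were higher and 1 lower. With no filter 31 were tested, 17 were higher and 0 lower. Under the replicate block 16 were higher and 0 lower, the lost call being Herc6 (adjusted p 0.0792 by limma), and 6248 genes were called over the whole table against 7122. The numbers do not pair the libraries (correlation of same-numbered deviations -0.0549 across 14116 genes). The median of the members, 0.94, was 1.14 and 0.52 with pseudocounts of 0.1 and 5, 0.64 with no filter and 0.90 with at least 5 TPM. Leaving out 1 library, with the lone library assumed to vary like the others, gave 14 to 16 members higher, 0 lower in each case, medians of 0.89 to 0.98 and 4720 to 5954 genes called. The lowest of these, 4720 and 4785, were without 3D replicate 1 and without 3D replicate 2. Over single members, 206 of 219 values kept direction and side of the threshold, 11 (of Herc6, Irf9 and Parp14) lost the call and 2 changed sign, both of Trim30a, at 0.03 under quantile normalization and 0.00 without 2D replicate 1 (range with 1 library left out -0.11 to 0.00). Irf9 also lost its call with no filter (adjusted p 0.0712 by limma), as did Herc6 (0.0947). Median centring and quantile normalization left 16 members higher and 1 lower. The cause was not tested.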

Other observations

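Genes that remove or edit the cell's own nucleic acid, whose loss is known to set off interferon signalling, were also read. Any link of their levels to those of the members was not tested. Of 8 such genes 2 were higher and 3 lower in 3D, with a median log2 fold change of -0.08, shares near those over all genes tested (23.4% higher, 27.1% lower). The 3 that fell were the subunits of RNase H2, an enzyme that removes ribonucleotides from DNA. Rnaseh2a fell from 57.9 ± 7.65 to 40.0 ± 1.40 TPM, Rnaseh2b from 14.7 ± 0.409 to 9.50 ± 0.443 TPM and Rnaseh2c from 80.3 ± 4.44 to 63.2 ± 5.06 TPM (n = 2 each, SD, adjusted p 0.0143, 0.00455 and 0.0210 by limma). Dnase2a, a lysosomal DNase, rose from 11.2 ± 0.703 to 20.6 ± 0.654 TPM (adjusted p 0.00187 by limma) and the RNA helicase gene Skiv2l by 0.29 on the log2 scale. Adar, an RNA-editing enzyme, was not past the threshold (log2 fold change 0.16, adjusted p 0.244 by limma). Trex1, a DNase of the cytosol, was at 1.77 ± 0.509 TPM in 2D against 2.38 ± 0.102 TPM in 3D (n = 2 each, SD, adjusted p 0.202 by limma).

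The ISG15 conjugation genes outside the members were read after their values were seen. Uba7, the activating enzyme of ISG15, rose from 2.35 ± 0.108 to 6.50 ± 0.435 TPM (n = 2 each, SD, adjusted p 0.00157 by limma). Ube2l6, the conjugating enzyme, was at 1.91 and 2.09 TPM in 2D and at 5.84 and 2.75 TPM in 3D, with the 3D libraries far apart and no call (adjusted p 0.0997 by limma).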
